A study of Canis lupus familiaris with 12 samples.

Results

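ZONAB, the product of YBX3, and 4 genes linked to it in the control of proliferation were examined in MDCKII cells, an epithelial line from dog kidney. The genes were chosen by name from what is known of the pathway. They are YBX3 itself, its paralog YBX1, and CCND1, CDK4, and PCNA, and all 5 were among the 13672 genes listed and among the 12650 genes tested. The libraries came from untreated cells of 4 genotypes, with 3 libraries each: WT cells, CGN-KO cells (line 1G8), CGNL1-KO cells (line 22), and cells without both genes (double-KO, line 21D3). CGN and CGNL1 encode cingulin and paracingulin, a pair of related proteins of epithelial junctions. The KO lines were made by CRISPR/Cas9 editing, and each KO genotype was sequenced from 1 line, so loss of the gene and other properties of that line cannot be told apart. The labels do not say whether the replicates were separate cultures, so the p-values measure the spread between these libraries only.

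ZONAB (also DbpA) is a Y-box factor of the cold shock domain family that shuttles between tight junctions and the nucleus. At junctions it binds the SH3 domain of ZO-1, and in the nucleus it acts on the promoters of cell cycle genes, with CCND1 and PCNA among its known targets in MDCK cells. It also binds the kinase CDK4, and its release from junctions as cell density falls is known to favor entry into S phase. Cingulin binds ZO-1 and GEF-H1, and the paper reports that paracingulin binds ZO-1 with lower affinity than cingulin. Both single-KO lines and the double-KO line thus bear on partners of this pathway. The RNASeq data come from whole cultures, in which fewer cells of a type and less RNA per cell cannot be told apart, and hold mRNA levels only, and the place of the ZONAB protein in the cell was not measured.

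The recovered totals were 16837532 to 30086076 reads per library, and the 5 genes rested on 701 to 15516 reads each. Levels are given as the deposited reads of a gene per 1000000 reads (CPM), which are not divided by transcript length, so no gene is compared with another by its level. CGN was at 199 to 233 CPM in WT, 198 to 213 CPM in CGNL1-KO, 47.0 to 56.5 CPM in CGN-KO, and 39.7 to 45.3 CPM in double-KO libraries. CGNL1 was at 7.74 to 12.3 CPM in WT, 5.04 to 6.92 CPM in CGN-KO, 1.76 to 3.02 CPM in CGNL1-KO, and 1.11 to 1.76 CPM in double-KO libraries. Of 8 epithelial markers, 8 were listed, and their summed level was 7218 to 7998 CPM over all libraries. The sum rests on the abundant markers, and CDH16 was at only 0.828 to 5.14 CPM over all libraries. Under the test given below, 3, 3, and 1 of the 8 markers were called higher than WT, and 2, 1, and 2 lower. These counts are for CGN-KO, CGNL1-KO, and double-KO cells, where 19%, 10.3%, and 26.3% of all genes were called. Of 8 markers of leukocytes, endothelium, and mesenchyme, 2 were listed (CD68 and ACTA2), with a summed level of 0.725 to 1.93 CPM.

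Differences between genotypes were tested with limma on log2(CPM + 1), and a gene was called at a Benjamini-Hochberg adjusted p below 0.05 over all 12650 genes. PCNA was higher than in WT in each of the 3 KO lines, YBX3 was lower in CGN-KO and double-KO cells, and YBX1, CCND1, and CDK4 were not called in any line. The calls thus covered 2, 1, and 2 of 5 genes in the CGN-KO, CGNL1-KO, and double-KO lines. Over all genes tested, 19%, 10.3%, and 26.3% were called in the same order of lines. None of the 15 differences from WT reached the 2-fold change that the study's methods ask for, which 1.31%, 0.617%, and 1.41% of all genes did at the same adjusted p. The 3 comparisons share the WT libraries, so a high or low WT value moves all 3 together.

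**Figure D1:**
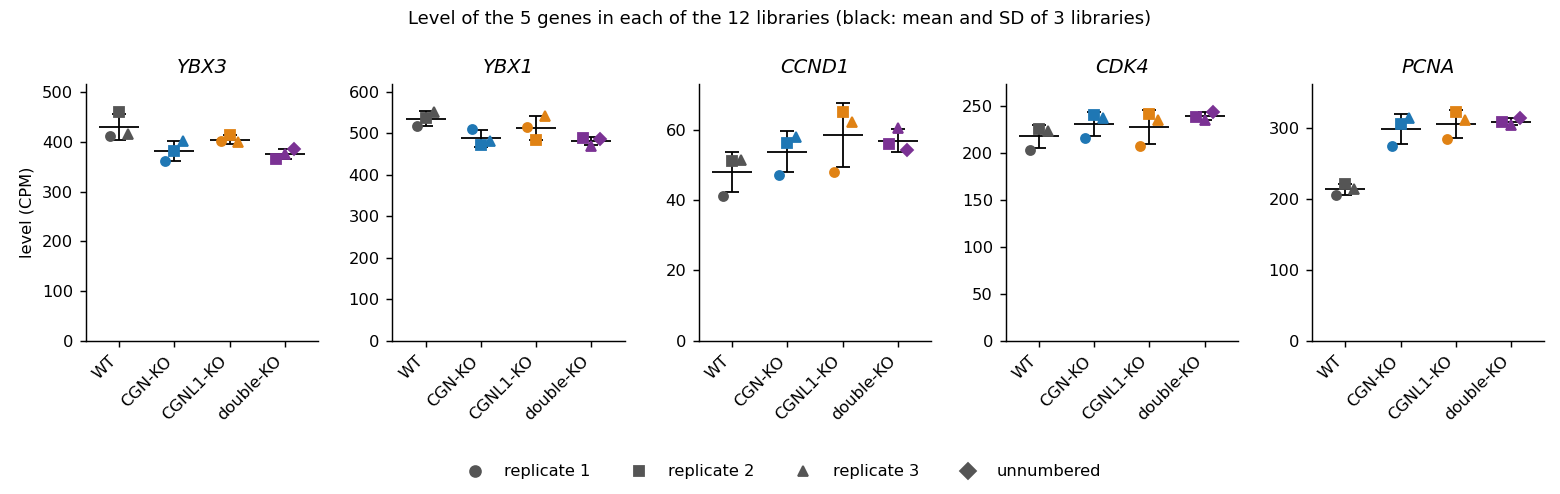
Level in CPM (vertical axes, from 0) of YBX3, YBX1, CCND1, CDK4, and PCNA in the 12 libraries by genotype (horizontal axis). Each symbol is 1 library with its replicate number as the shape, and black bars are the mean and SD of 3 libraries. PCNA is higher in all 9 KO libraries than in all 3 WT libraries, whereas the levels of the other 4 genes lie close together across genotypes.

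YBX3 mRNA was slightly lower in both lines in which CGN was deleted. Its level was 413, 461, and 416 CPM in WT replicates 1, 2, and 3. It was 363, 382, and 402 CPM in the CGN-KO replicates and 401, 414, and 399 CPM in the CGNL1-KO replicates. The double-KO libraries with the numbers 2 and 3 had 366 and 376 CPM, and the unnumbered one had 385 CPM. All CGN-KO and double-KO values were below the lowest WT value, whereas CGNL1-KO values overlapped with WT. The mean was 430.0 ± 27.0 CPM in WT, 404.8 ± 8.44 CPM in CGNL1-KO, 382 ± 19.9 CPM in CGN-KO, and 376 ± 9.70 CPM in double-KO cells (SD, n = 3 for each).

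The log2 difference of YBX3 from WT was -0.17 ± 0.056 (SE) in CGN-KO cells (limma, adjusted p = 0.0470) and -0.19 ± 0.056 in double-KO cells (adjusted p = 0.0184). In CGNL1-KO cells it was -0.085 ± 0.056 (limma, adjusted p = 0.417), with a 95% interval from -0.20 to 0.034. Lower calls made up 7.87%, 3.49%, and 11.5% of all genes in the CGN-KO, CGNL1-KO, and double-KO lines, and 17.5%, 11.1%, and 21.8% had all 3 KO values below all WT values. The test across the 4 genotypes gave an adjusted p of 0.0484 (limma's F test), a call made for 29.9% of all genes. Between KO lines, 5.19% of all genes (656) were called for CGN-KO against CGNL1-KO (1955 genes with the replicate number as a block), 8.84% for double-KO against CGN-KO, and 14.4% for double-KO against CGNL1-KO. No pair of KO lines was called different in YBX3 by the limma test (adjusted p = 0.492 for CGN-KO against CGNL1-KO, 0.848 for double-KO against CGN-KO, and 0.24 for double-KO against CGNL1-KO). Neighbours in the order of means (double-KO, CGN-KO, CGNL1-KO) were thus not separated by the test. The fall was close to the limit of the test. Over all settings tried it was called in 10 of 22 for CGN-KO and 19 of 22 for double-KO cells, with limma adjusted p up to 0.225 (-0.12) and 0.105 (-0.14), both without WT replicate 2, the highest WT library. The CGN-KO call was also lost without WT replicate 3 (adjusted p = 0.0506), CGN-KO replicate 1 (0.155) or 2 (0.102), CGNL1-KO replicate 3 (0.0637), or any of the double-KO libraries (0.0606 to 0.0641), and the double-KO call without double-KO replicate 2 (0.0792) or 3 (0.0542).

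YBX1, which encodes YB-1, the ubiquitous paralog of ZONAB, binds the same class of promoter element and also packages mRNA in the cytoplasm. Its level was 518, 537, and 553 CPM in the WT replicates and 512, 473, and 481 CPM in the CGN-KO replicates. It was 515, 483, and 542 CPM in CGNL1-KO replicates 1, 2, and 3, and 489, 471, and 487 CPM in double-KO replicates 2, 3, and the unnumbered one. The WT values lay above all CGN-KO and all double-KO values and overlapped with CGNL1-KO. Such a separation was found for 17.5% of all genes in CGN-KO and 21.8% in double-KO cells. The log2 differences from WT were -0.13 ± 0.055 (CGN-KO), -0.063 ± 0.055 (CGNL1-KO), and -0.15 ± 0.055 (double-KO; SE; limma, adjusted p = 0.105, 0.562, and 0.0544). The 95% intervals ran from -0.25 to -0.016, from -0.18 to 0.055, and from -0.27 to -0.034, so a fall of more than 0.27 on the log2 scale lies outside all of them. The double-KO value was called by DESeq2 on the recovered reads (adjusted p = 0.0215) and not by edgeR. YBX1 and YBX3 share a conserved domain, and how the authors' counting treated reads that match more than 1 gene is not given in the sources used here.

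Of 8 genes in the list of the cold shock domain family, 5 were tested, YBX2 and CARHSP1 among them, and LIN28A, LIN28B, and CSDC2 were not among the listed genes. YBX2, whose product is best known from germ cells, fell in CGNL1-KO (log2 difference -0.63 ± 0.14 (SE), limma, adjusted p = 0.00846) and double-KO cells (-0.41, adjusted p = 0.0426). It was scarce and near the filter of 1 CPM, at 1.71 to 2.06 CPM in WT (31 to 37 reads). In CGNL1-KO it was at 0.587 to 1.22 CPM (13 to 21 reads), and in double-KO at 0.910 to 1.26 CPM (16 to 31 reads). CARHSP1, a small RNA-binding cold shock protein, fell in double-KO cells (-0.47 ± 0.11, limma, adjusted p = 0.00548). Including YBX3 and YBX1, 1, 1, and 3 of the 5 tested family genes were lower in the CGN-KO, CGNL1-KO, and double-KO lines, where lower calls made up 7.87%, 3.49%, and 11.5% of all genes, and 0 were higher in any line. The median log2 difference of these 5 genes was -0.13, -0.085, and -0.19, beside -0.0039, -0.0031, and -0.00036 for all genes. In CGNL1-KO and double-KO cells this median is the value of YBX3 itself, so it adds nothing to the YBX3 result.

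CCND1 encodes cyclin D1, the regulatory partner of CDK4 that carries growth signals into G1. Its level was 41.3, 51.0, and 51.4 CPM in the WT replicates and 47.1, 56.3, and 57.9 CPM in the CGN-KO replicates. In CGNL1-KO replicates 1, 2, and 3 it was 48.0, 65.2, and 62.1 CPM. Double-KO replicates 2 and 3 had 56.0 and 60.5 CPM, and the unnumbered library had 54.2 CPM. The double-KO values were all above WT, as was found for 23.2% of all genes, and replicate 1 was the lowest library in each of the other genotypes. The mean was 47.9 ± 5.71 CPM in WT, 53.8 ± 5.84 CPM in CGN-KO, 56.9 ± 3.24 CPM in double-KO, and 58.4 ± 9.16 CPM in CGNL1-KO cells (SD, n = 3 for each).

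The log2 difference of CCND1 from WT was 0.16 ± 0.11 (CGN-KO), 0.28 ± 0.11 (CGNL1-KO), and 0.25 ± 0.11 (double-KO; SE; limma, adjusted p = 0.323, 0.139, and 0.110). The 95% interval was -0.069 to 0.40 in CGN-KO, 0.043 to 0.51 in CGNL1-KO, and 0.016 to 0.48 in double-KO cells. Between KO lines the adjusted p was 0.663 or higher. Without CGNL1-KO replicate 1, CCND1 was called in CGNL1-KO (0.41, limma, adjusted p = 0.0103) and in double-KO cells (0.25, adjusted p = 0.0365).

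CDK4, the kinase that cyclin D1 activates and that binds ZONAB, was at 203, 225, and 224 CPM in the WT replicates. It was at 216, 240, and 237 CPM in the CGN-KO replicates and at 207, 242, and 234 CPM in the CGNL1-KO replicates. Double-KO replicates 2 and 3 had 238 and 235 CPM, and the unnumbered library had 244 CPM. The CGN-KO and CGNL1-KO values overlapped with WT, and the double-KO values lay above it, as was found for 23.2% of all genes. The log2 differences of 0.086, 0.064, and 0.14 (SE 0.064 for each) were not called (limma, adjusted p = 0.385, 0.621, and 0.131), and the widest upper bound of their 95% intervals was 0.27, in double-KO cells.

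PCNA, the sliding clamp that holds DNA polymerases on the template, was the gene of the set with the largest difference from WT in each KO line. Its level was 206, 221, and 214 CPM in the WT replicates. It was 275, 307, and 315 CPM in the CGN-KO replicates and 284.5, 324, and 311 CPM in the CGNL1-KO replicates. Double-KO replicates 2 and 3 had 309 and 304 CPM, and the unnumbered library had 315 CPM. Every KO value was above every WT value, as was found for 18.4%, 13.3%, and 23.2% of all genes in the CGN-KO, CGNL1-KO, and double-KO lines. The mean was 214 ± 7.31 CPM in WT and 1.40, 1.43, and 1.45 times as high in CGN-KO (299 ± 20.9), CGNL1-KO (306 ± 20.0), and double-KO cells (309 ± 5.41 CPM; SD, n = 3 for each).

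The log2 difference of PCNA from WT was 0.48 ± 0.061 (CGN-KO), 0.52 ± 0.061 (CGNL1-KO), and 0.53 ± 0.061 (double-KO; SE; limma, adjusted p = 3.27e-05, 2.94e-05, and 9.02e-06). It was called under every alternative tried, with log2 differences between 0.44 and 0.57 over the 3 lines. Higher calls made up 11.2%, 6.81%, and 14.8% of all genes in these comparisons. No pair of KO lines was called different in PCNA (limma, adjusted p = 0.677 to 0.901), and the intervals of these differences stayed within -0.16 to 0.18. The double-KO change minus the sum of both single-KO changes was -0.46 on the log2 scale (limma, adjusted p = 0.00221, 95% interval -0.65 to -0.28), a call made for 10.3% of all genes.

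**Figure D2:**
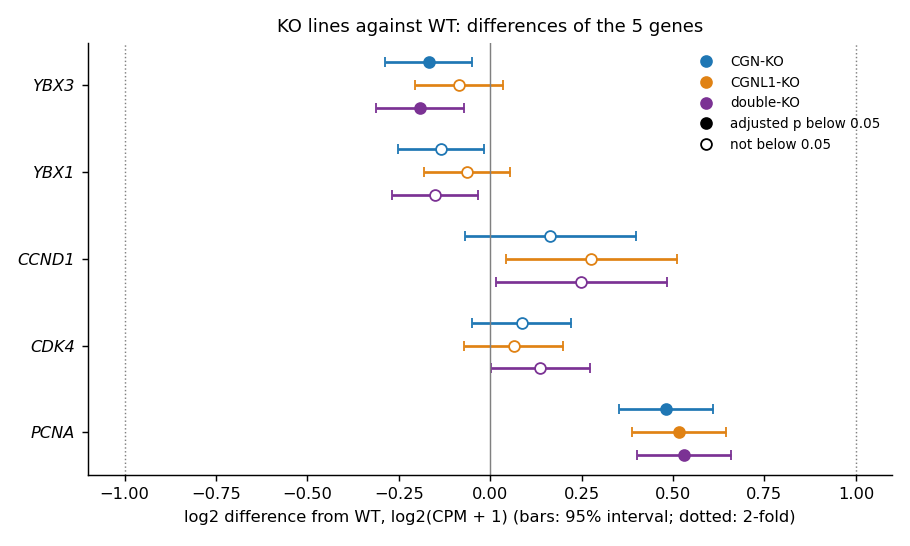
Log2 difference of each KO line from WT (horizontal axis, on the scale of log2(CPM + 1)) for the 5 genes (vertical axis), with 95% intervals as bars and dotted lines at a 2-fold difference. Filled points had a limma adjusted p below 0.05. PCNA is filled in all 3 lines, at 0.48 to 0.53, and YBX3 is filled in CGN-KO (-0.17) and double-KO cells (-0.19).

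The rise of PCNA was shared by the genes beside it. RefSeq gene order of the assembly UU_Cfam_GSD_1.0 was used for neighbours only, since the reads were aligned to another build. The 10 tested genes on one side, from MKKS to CDS2, were all higher than WT in all 3 lines, and 9 of 10 were called in each. Their median log2 difference was 0.53 (CGN-KO), 0.56 (CGNL1-KO), and 0.54 (double-KO), beside 0.48, 0.52, and 0.53 for PCNA. Among them was MCM8, a helicase gene of DNA repair, with 0.34, 0.53, and 0.54, and GPCPD1, a phosphodiesterase gene of phospholipid metabolism, with 1.14, 1.08, and 0.96. PCNA therefore lay below the median of these neighbours in each line.

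On the other side only the first 3 genes formed a run called higher in all 3 lines. TMEM230, SLC23A2, and PRNP, which follow PCNA, were called in each line, with log2 differences of 0.46 to 0.67 in CGN-KO, 0.55 to 0.77 in CGNL1-KO, and 0.67 to 0.86 in double-KO cells. From SMOX to CENPB, the next 7 tested genes, the median was 0.047, 0.16, and 0.0091, and 0 of 7 were called higher in CGN-KO and CGNL1-KO and 1 of 7 in double-KO cells. Further on, single genes were called higher among others that were not, such as UBOX5, the 21st tested gene after PCNA, in all 3 lines (0.34, 0.30, and 0.31), SIGLEC1 in CGN-KO and CGNL1-KO cells (0.35 and 0.37), C24H20orf27 in CGNL1-KO and double-KO cells (0.20 and 0.18), and PCED1A in these last lines (0.33 and 0.49). These limits were drawn, and these genes named, after the values were seen. In the longer stretch from NAPB to PCNA, which was bounded earlier on these same values, all 50 genes were higher in each line, and 34, 35, and 27 of the 49 genes other than PCNA had a larger log2 difference than PCNA itself. CDC25B, a phosphatase gene that acts on cyclin-dependent kinases and the ninth tested gene after PCNA, fell in CGN-KO (-0.22, limma, adjusted p = 0.0273) and double-KO cells (-0.28, adjusted p = 0.00446).

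**Figure D3:**
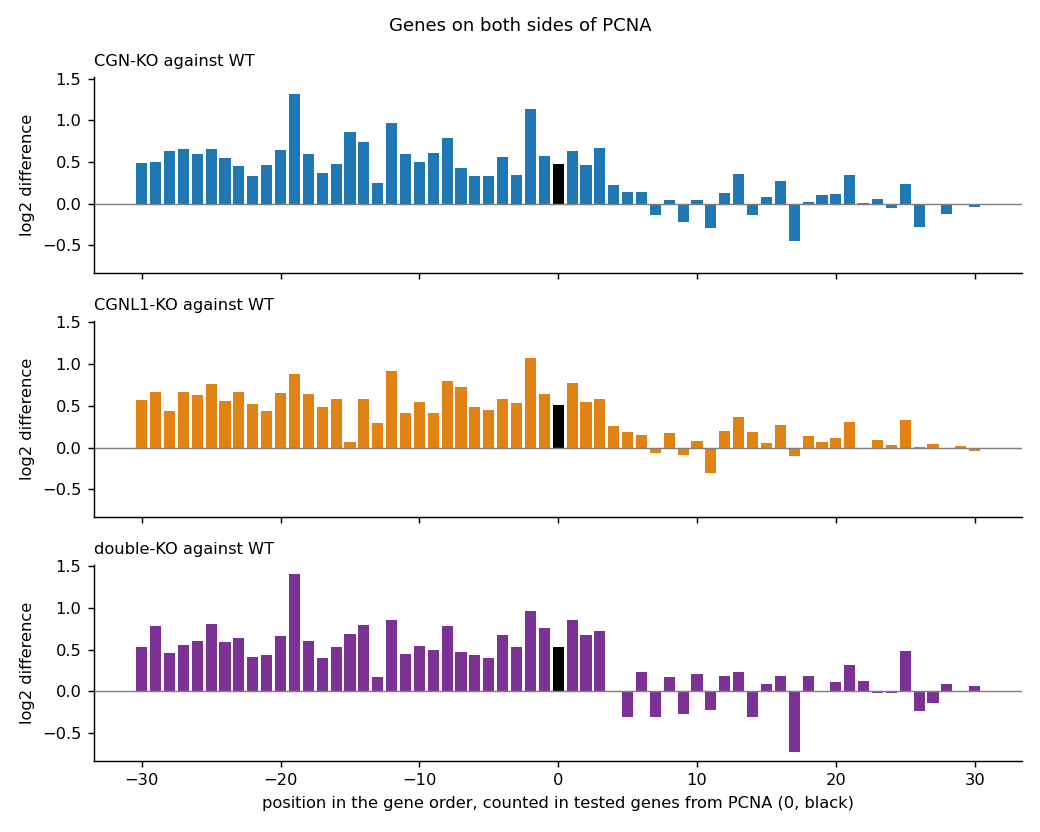
Log2 difference from WT (vertical axes) of the 30 tested genes on each side of PCNA, in gene order (horizontal axis, counted from PCNA at 0, black bar), in CGN-KO, CGNL1-KO, and double-KO cells. In each panel all genes before PCNA and the first 3 after it are above 0, though spread around PCNA (FLRT3 at 1.31, 0.88, and 1.41, ISM1 at 0.071 and not called in CGNL1-KO cells), and the next 7 have medians of 0.0091 to 0.16.

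The other 4 genes were set beside the nearest tested genes on both sides, up to 10 on each. For PCNA this median over both sides was 0.38 (CGN-KO), 0.51 (CGNL1-KO), and 0.49 (double-KO). PCNA lay 0.097, 0.0093, and 0.045 above it, whereas it lay below the median of the side from MKKS to CDS2. Around CCND1, the 20 nearest tested genes had a median log2 difference of 0.11 (CGN-KO), 0.043 (CGNL1-KO), and 0.28 (double-KO). In double-KO cells 19 of these 20 neighbours were higher than WT, and the other 397 tested genes of the chromosome, which also holds CTNND1, had a median of 0.30, beside 0.25 for CCND1. In CGNL1-KO cells CCND1 (0.28, not called) was 0.23 above its neighbours. The neighbours of YBX3 had medians of 0.0062, -0.079, and -0.13, those of YBX1 -0.0054, 0.012, and 0.047, and those of CDK4 0.032, -0.030, and -0.034. YBX3 lay 0.17 below its neighbours in CGN-KO cells and 0.064 below them in double-KO cells.

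Partners of ZONAB and ZO-1 at junctions were examined as a list of 12 genes, all tested. The CGN-KO line had 5 lower and 0 higher genes, the CGNL1-KO line 1 lower and 0 higher, and the double-KO line 3 of each. In the same order of lines, 7.87%, 3.49%, and 11.5% of all genes were called lower and 11.2%, 6.81%, and 14.8% higher. The list holds the deleted genes themselves, and the lower calls of CGN in CGN-KO and double-KO cells and of CGNL1 in CGNL1-KO and double-KO cells are of this kind. The median log2 difference of the list was -0.037, -0.036, and -0.047, beside -0.0039, -0.0031, and -0.00036 for all genes. TJP1, which encodes the anchor ZO-1, was at 143 ± 8.68 CPM in WT, and its log2 differences were -0.075, -0.072, and -0.098 (limma, adjusted p = 0.407, 0.526, and 0.238). Occludin mRNA (OCLN) fell in CGN-KO (-0.20, limma, adjusted p = 0.0101) and double-KO cells (-0.27, adjusted p = 0.000849), and was at -0.16 in CGNL1-KO cells (adjusted p = 0.0611). CGNL1 was also lower in the CGN-KO line (-0.61, limma, adjusted p = 0.0200).

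RALA, a small GTPase that binds ZONAB, fell in CGN-KO cells (-0.19 ± 0.062, limma, adjusted p = 0.0371) and rose in double-KO cells (0.33 ± 0.062, adjusted p = 0.000949). These lines differed directly (0.52, limma, adjusted p = 7.44e-05). RALA is on the chromosome of CTNND1 and CCND1, and its 20 neighbours had a median of 0.027 in CGN-KO and 0.35 in double-KO cells. SYMPK, the gene of symplekin, which binds ZONAB in the nucleus, rose in double-KO cells (0.20, adjusted p = 0.00486), where its 20 neighbours had a median of 0.27. RHOA, the GTPase that GEF-H1 activates, rose in double-KO cells (0.15, limma, adjusted p = 0.0326). ARHGEF2 (GEF-H1), RACGAP1 (MgcRacGAP), TJP3 (ZO-3), and HSPA4, a chaperone that binds ZO-1, were not called in any line, with log2 differences between -0.13 and 0.17. ERBB2, a receptor gene that ZONAB is known to repress, was at 122 ± 6.73 CPM in WT and had log2 differences of 0.13, -0.074, and -0.036 (limma, adjusted p = 0.199, 0.567, and 0.732).

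The cell cycle around these genes was examined over 6 lists with 77 genes, of which 75 were tested. CGN-KO cells had 4 higher and 11 lower genes, CGNL1-KO cells 3 higher and 4 lower, and double-KO cells 11 higher and 6 lower. These calls are 20%, 9.33%, and 22.7% of the genes tested, near the 19%, 10.3%, and 26.3% of all genes. The median log2 difference over the lists was -0.057, -0.061, and 0.026. None of these genes reached a 2-fold difference. The number of lower calls depended on single libraries, from 4 to 14 in CGN-KO and from 1 to 8 in CGNL1-KO cells when each library was left out in turn, with 4 and 1 without WT replicate 2. In CGN-KO cells 6 genes were lower without CGN-KO replicate 1. In CGNL1-KO cells 2 were lower without WT replicate 3 or CGNL1-KO replicate 1, and 8 without CGNL1-KO replicate 2. In double-KO cells 3 were lower without WT replicate 2 or 3 or without double-KO replicate 2 or 3, and 7 were higher without double-KO replicate 3.

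Among 9 G1 cyclins and kinases, no gene was called higher, and 2, 0, and 2 were lower. These calls are 22.2%, 0%, and 22.2% of the list, beside 19%, 10.3%, and 26.3% of all genes. Higher calls made up 11.2%, 6.81%, and 14.8% of all genes, so few would be expected among 9. CCND2, another D-type cyclin, fell in CGN-KO (-0.20) and double-KO cells (-0.30), CCND3 fell in double-KO cells (-0.26), and CDK2, the partner of E-type cyclins, fell in CGN-KO cells (-0.22; limma, adjusted p = 0.0404, 0.00259, 0.000897, and 0.0357 in this order). Among 5 CDK inhibitors tested, CDKN1A, which encodes p21, rose in CGN-KO (0.24, adjusted p = 0.0146) and CGNL1-KO cells (0.42, adjusted p = 0.000368). CDKN1A was at 375 to 415 CPM in WT and at 434 to 482, 482 to 563, and 343 to 366 CPM in the CGN-KO, CGNL1-KO, and double-KO lines. The double-KO values were below all the others, and the direct limma test called them lower than CGN-KO (-0.39, adjusted p = 0.00146) and CGNL1-KO (-0.57, adjusted p = 2.14e-05). CDKN2B, the p15 inhibitor of CDK4 and CDK6, rose in CGN-KO cells from 4.70 ± 0.732 to 9.58 ± 0.136 CPM (SD, n = 3; log2 difference 0.90, limma, adjusted p = 0.00263).

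RB1, the pocket protein that cyclin D1 and CDK4 phosphorylate, fell in CGN-KO cells (-0.30, limma, adjusted p = 0.00903), and E2F1, a factor that RB1 restrains, rose in double-KO cells (0.34, adjusted p = 0.00652). They were the called genes among the 10 of the RB and E2F list. Calls made up 10%, 0%, and 10% of it in CGN-KO, CGNL1-KO, and double-KO cells, beside 19%, 10.3%, and 26.3% of all genes.

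The partners of PCNA at the replication fork were called in both directions over the 3 lines. Of the 20 other genes for clamp loaders and PCNA clients, the CGN-KO line had 0 higher and 4 lower, the CGNL1-KO line 0 and 2, and the double-KO line 3 and 2. With PCNA included, calls made up 23.8%, 14.3%, and 28.6% of the list, near the 19%, 10.3%, and 26.3% of all genes. The lower genes included ATAD5, whose product unloads PCNA from DNA, with -0.29, -0.22, and -0.16 (limma, adjusted p = 0.00174, 0.0173, and 0.0467). PCLAF, a small PCNA-binding protein gene, fell in CGN-KO and CGNL1-KO cells (-0.20 in each), and POLD3, a subunit of DNA polymerase delta, fell in CGN-KO (-0.37) and double-KO cells (-0.27). LIG1 (DNA ligase), FEN1 (flap endonuclease), and POLD1 (the catalytic subunit of polymerase delta) rose in double-KO cells by 0.35, 0.31, and 0.31 (limma, adjusted p = 0.000215, 0.00457, and 0.0396). LIG1 and POLD1 are on the chromosome of MYH14, where the median was 0.20, and FEN1 is on that of CTNND1, where it was 0.29. Their nearest 20 neighbours had medians of 0.22 (LIG1), 0.26 (POLD1), and 0.36 (FEN1).

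Of 18 genes for replication licensing and the fork, CDC6, which loads the MCM helicase, fell in CGN-KO (-0.44), CGNL1-KO (-0.32), and double-KO cells (-0.36; limma, adjusted p = 0.00174, 0.0226, and 0.00495). Its level was 100 to 115 CPM in WT libraries, and every KO library was below that range, at 70.8 to 97.2 CPM. Taken line by line, this was found for 17.5% (CGN-KO), 11.1% (CGNL1-KO), and 21.8% (double-KO) of all genes. GMNN, the licensing inhibitor geminin, fell as well, by 0.36, 0.31, and 0.24 on the log2 scale (limma, adjusted p = 0.00538, 0.0240, and 0.0415). CDC45 (-0.32) and POLA1 (-0.25) fell in CGN-KO cells, and CDT1, the licensing factor that geminin binds, rose in double-KO cells (0.35; limma, adjusted p = 0.0396, 0.0138, and 0.0145). The neighbours of CDC6 and GMNN had medians between -0.035 and 0.079 over the 3 lines.

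Among 12 proliferation markers, AURKA, a mitotic kinase gene, was called in all 3 lines, and no other marker was called in CGN-KO or CGNL1-KO cells. Its log2 difference was 0.27, 0.26, and 0.30 (limma, adjusted p = 0.00429, 0.010, and 0.00138), and its 20 neighbours on the chromosome of PCNA had medians of 0.33, 0.33, and 0.31. In double-KO cells RRM2 (ribonucleotide reductase, 0.37), AURKB (0.32), CDC20 (0.23), and TOP2A (0.22) rose as well, with neighbour medians of -0.017, 0.078, 0.0014, and -0.064. MKI67, CCNB1, CCNA2, CDK1, BUB1, PLK1, and TYMS were not called in any line.

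Of the 11 cell cycle genes higher in double-KO cells, 6 were on the chromosomes of MYL9 (PCNA, AURKA, and E2F1), MYH14, and CTNND1, which hold 9 of the 75 genes tested and 1403 of the 11748 genes placed. In CGN-KO cells 2 of 4 higher genes and in CGNL1-KO cells 2 of 3 were PCNA and AURKA. Of the 11, 4, and 6 lower cell cycle genes, 0 were on these chromosomes. The chromosomes were named with earlier results of these data known, and their genes as a whole were raised in double-KO cells. The counts are thus a description, and position was not tested.

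**Figure D4:**
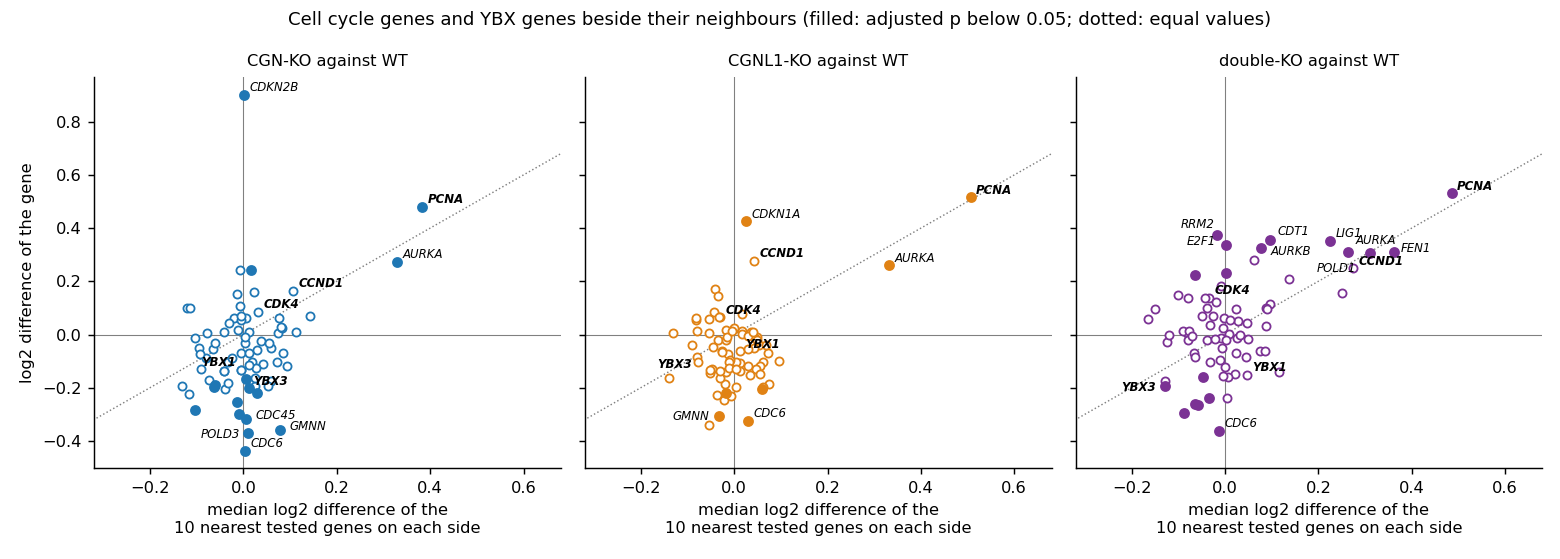
Log2 difference from WT of each cell cycle list gene and of YBX3 and YBX1 (vertical axes) against the median log2 difference of the 10 nearest tested genes on each side (horizontal axes), 1 panel per KO line. Filled points had a limma adjusted p below 0.05, and the dotted line marks equal values. PCNA and AURKA lie far to the right in every panel, CCND1, FEN1, POLD1, and LIG1 lie to the right in double-KO cells, and CDC6 and GMNN fall with neighbours near 0.

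**Figure D5:**
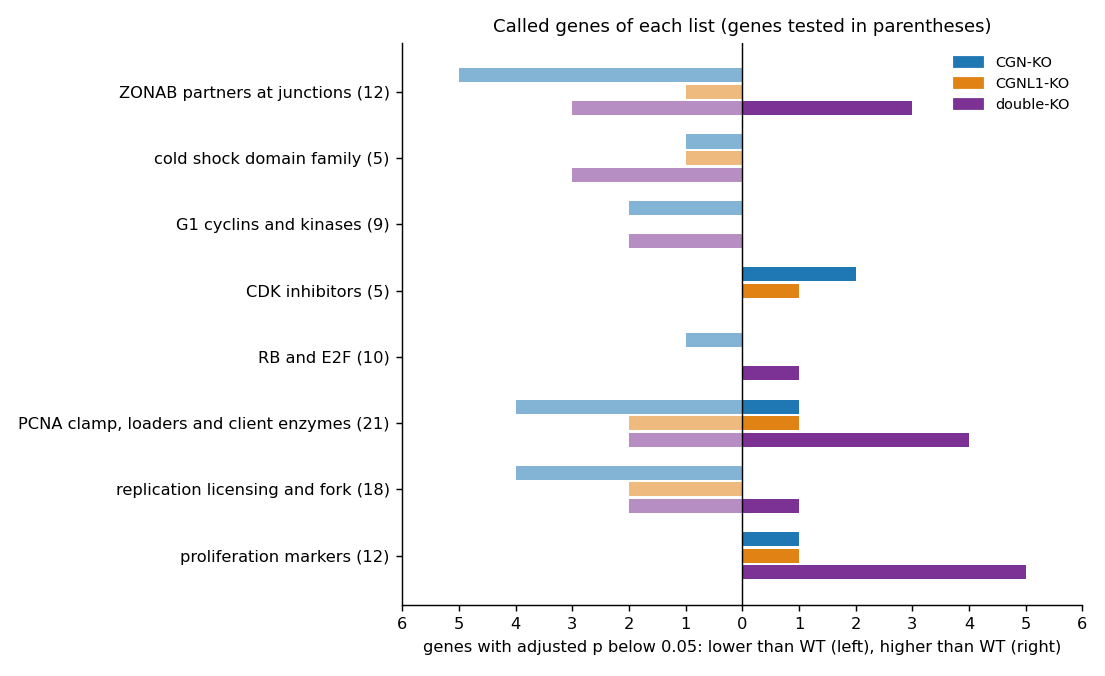
Number of genes with a limma adjusted p below 0.05 that were lower (left) or higher (right) than WT, for 8 gene lists and 3 KO lines, with the number of genes tested in parentheses. The lists of ZONAB partners and of PCNA clients include the deleted genes and PCNA, respectively, and the cold shock domain family includes YBX3 and YBX1. G1 cyclins and kinases hold 0 higher genes. Of 12 proliferation markers 1, 1, and 5 are higher in CGN-KO, CGNL1-KO, and double-KO cells, where higher calls made up 11.2%, 6.81%, and 14.8% of all genes, and the difference between lines was not tested.

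The genes whose levels were most like those of each of the 5 genes were found by the Pearson correlation of log2(CPM + 1) over the 12 libraries, which share genotype and library effects and serve as a description. For PCNA they were TRMT6 (0.99), SNX5 (0.98), and YTHDF1 (0.98), all on its own chromosome, and 6 of its 10 most similar genes lay in the stretches from NAPB to PCNA or from ADNP to PCMTD2 of that chromosome. For YBX3 they were MTMR1 (0.94), LOC475080 (0.94), and ATAD1 (0.93), and for YBX1 ND3 (0.95), SELENOF (0.95), and TATDN1 (0.94). For CCND1 they were ENTPD4 (0.96), MANF (0.94), and RBM28 (0.93), and for CDK4 DYNLL1 (0.98), APEX2 (0.96), and ERP29 (0.95). Of the 10 genes most similar to each of these 4, 0 were placed on the same chromosome, and 3 of those of YBX1 could not be placed.

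Replicate 1 had the lowest level of CCND1, of CDK4, and of PCNA in each genotype with 3 numbered libraries (WT and both single-KO lines). In double-KO cells the unnumbered library had the lowest CCND1 and the highest CDK4 and PCNA. What a replicate number marks is not given in the labels.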

How the data were processed

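RNASeq was measured in 12 libraries of MDCKII cells, 3 for each of 4 genotypes. The authors prepared stranded mRNA libraries, aligned single reads with STAR (2.7.0f in the submitters' processing notes) to CanFam3.1, counted reads per gene with HTSeq 0.9.1, and normalized and filtered them with edgeR. The deposited values are a signal in CPM per gene and library, relative to the library total times a TMM factor. All values were whole multiples of 1 step per library (tolerance 0.01, 100% of values), so reads were recovered. The annotation release and the strand setting of the counting are not given in the sources used here. 1 double-KO column carries no replicate number and was used without one. 0 columns were left unused, and 16 gene names in the form of a date were left as they are.

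Genes above 1 CPM in at least 3 libraries were tested with limma 3.58.1 in R 4.3.3 (lmFit, then eBayes with its variance trend). The response was log2(CPM + 1), all 12 libraries entered together, and p-values were adjusted by Benjamini-Hochberg over all 12650 genes. Log2 differences on this scale understate changes of scarce genes. KO lines were compared with WT, with each other, and, for the double-KO, with the sum of the single-KO changes. A limma F test compared all 4. Alternatives were edgeR 4.0.16 and DESeq2 1.42.0 on recovered reads, scaling to library totals, pseudocounts of 0.5 and 5, no filter, no variance trend, fits of 2 genotypes, a replicate block, and each library left out. The tests were tested on simulated data.

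The genes named are the 5 genes, the ZONAB partners, the 2 largest rises and falls of each list among called genes, the 3 genes most similar to each of the 5, and the genes next to PCNA. Others, such as MCM8, GPCPD1, CDC25B, CCND3, RB1, and CDKN1A, were named after their values were seen where a list is described in full. Values of some list genes are not reported here, although the counts and medians of their lists include them. Genes, lists, named chromosomes, and the stretches NAPB to PCNA and ADNP to PCMTD2 were chosen with earlier results of these data known. Neighbours were taken from the RefSeq gene order of UU_Cfam_GSD_1.0, with 11748 of 12650 genes found there by their symbols (92.9%). The deviations of same-numbered libraries from their genotype means correlated at 0.179 to 0.632 between CGN-KO and CGNL1-KO cells, in 3 of 3 pairs, so these lines were also compared with the number as a block. No label gives this pairing. Between WT and each KO line not every pair was above 0.1. Plots were drawn with matplotlib 3.10.9.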

Additional observations from a re-analysis of the deposited data

Results flagged for a closer look

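PCNA was the 1 value among those examined in which the effects of the knockouts differed by a direct test. Its log2 difference from WT was 0.48 (CGN-KO), 0.52 (CGNL1-KO), and 0.53 (double-KO), so the double-KO change minus the sum of the single-KO changes was -0.46 (limma, adjusted p = 0.00221). The genes beside PCNA were raised in all 3 lines as well, and their part in this value was not tested.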

How the results depend on the processing

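Of 835 alternative values for the 5 genes, 770 kept direction and side of the threshold, 29 lost a call, 13 gained one, and 23 changed sign, 0 of them among called values. The causes were not tested. YBX3 in CGN-KO against WT was not called with edgeR (-0.17, adjusted p = 0.0520), library totals (-0.16, 0.0652), no variance trend (-0.17, 0.0831), or only 2 genotypes (-0.17, 0.0976). Across all genotypes, edgeR's F test gave YBX3 an adjusted p of 0.0523. The limma F test gave it 0.0630 with totals, 0.098 with no variance trend, and 0.0510 with no filter. YBX1 in double-KO cells was called with DESeq2 (-0.16), totals (-0.15), and 2 genotypes (-0.15), and CCND1 there with 2 genotypes (0.25, adjusted p = 0.0162). With totals, which moved the median of all genes by at most 0.039, the signs turned for CCND1 in double-KO against CGNL1-KO (0.0064), CDK4 in double-KO against the sum of single KOs (0.0091), and PCNA in CGN-KO against CGNL1-KO (0.0094). Fits of 2 genotypes called 787 genes in CGNL1-KO against WT (1302 in the report's fit) and 327 between CGN-KO and CGNL1-KO (656). With a 2-fold rule as well, 0, 0, and 0 of the 5 genes were called. PCNA minus its neighbours was -0.029 (CGN-KO) and -0.14 (double-KO) with 5 genes on each side, and 0.11 (double-KO) with 25. Lower cell cycle genes in CGNL1-KO cells numbered 1 with no variance trend and 1 with 2 genotypes.

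With the replicate block over the 11 numbered libraries, CCND1 was called in CGN-KO (0.16, limma, adjusted p = 0.0383) and CGNL1-KO cells (0.28, 0.0019) and across genotypes (0.0060), and lower cell cycle genes numbered 19 and 11. Double-KO against CGN-KO turned sign for CDK4 (-0.017) and PCNA (-0.0068), and PCNA did so against CGNL1-KO (-0.042). Calls between CGN-KO and CGNL1-KO numbered 1154, or 1955 in a block fit of those lines alone, added after seeing the data, and neither block changed a call of the 5 genes there. The correlations of same-numbered libraries between WT and the KO lines ran from -0.15 to 0.37, so the numbers are not taken as pairs there.

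Leaving out each library in turn gave, on the log2 scale, YBX3 -0.21 to -0.12 in CGN-KO, -0.22 to -0.14 in double-KO, and -0.062 to 0.013 between these. YBX1 gave -0.18 to -0.13 in double-KO cells and -0.041 to 0.015 against CGN-KO. CCND1 gave 0.18 to 0.41 in CGNL1-KO, 0.15 to 0.30 in double-KO, -0.0068 to 0.14 for double-KO against CGN-KO, and -0.16 to 0.056 against CGNL1-KO. CDK4 gave -0.046 to 0.069 between the single KOs and -0.080 to 0.034 against their sum. PCNA gave -0.088 to 0.022 between the single KOs, -0.0068 to 0.090 for double-KO against CGN-KO, and -0.037 to 0.056 against CGNL1-KO. The F test's adjusted p ran from 0.0380 to 0.190 for YBX3 and from 0.0155 to 0.526 for CCND1. Genes called ran from 846 to 1422 (CGNL1-KO against WT), 341 to 1092 (CGN-KO against CGNL1-KO), 546 to 1512 and 1106 to 2060 (double-KO against CGN-KO and CGNL1-KO), and 831 to 1618 (against the sum). Lower cell cycle genes ran from 4 to 14, 1 to 8, and 3 to 7 in CGN-KO, CGNL1-KO, and double-KO cells, and higher ones from 7 to 12 in double-KO cells. CCND1, with 701 to 1490 reads, was the least deeply read of the 5 genes and had the widest intervals. The planned search of promoters was not run.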
